A study of Mus musculus with 3 samples.

Results

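The genes that handle drugs and other foreign compounds in the liver were followed through the CLK and BMAL1 ChIP-Seq peaks. Peaks were taken by the symbol of their assigned gene: cytochromes P450 (Cyp), glutathione transferases (Gst), UDP-glucuronosyltransferases (Ugt), sulfotransferases (Sult), carboxylesterases (Ces), ABC transporters (Abca to Abcg), aldehyde and alcohol dehydrogenases (Aldh, Adh), aldo-keto reductases (Akr) and flavin monooxygenases (Fmo), together with Por and Alas1. This gave 22 of the 2127 peaks, assigned to 17 of the 1816 genes in the table. Of the 22 peaks, 6 were CLK:BMAL1 peaks (a CLK peak and a BMAL1 peak overlapped by at least 1 bp), 10 were BMAL1 only and 6 were CLK only.

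All 3 libraries came from liver chromatin of wild-type C57BL/6 mice that were male and adult (3 to 6 months). The mice were held under LD12:12 (a day of equal light and dark) and killed at ZT8, which is 8 h past lights on. The CLK ChIP (anti-CLK antibody, 37371047 mapped tags) and the BMAL1 ChIP (anti-BMAL1 antibody, 28920754) were each compared with Input, chromatin taken without an antibody (18846303). One extract served all 3 libraries, with 1 library each, so no value below has a replicate, no difference between animals or times could be tested, and intervals cover counting error only. "Only" means that no overlapping peak of the other list reached the calling cutoff, not that the other factor was absent. Peaks give no expression level, so the labelled tissue could not be checked by its markers. Of 5 hepatocyte genes, Alb, Tat and Apoa1 had peaks, whereas Ttr and Serpina1a had none.

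Drug handling in the liver is usually described in steps. Oxidation, mainly by P450 enzymes that hold haem and receive electrons from the reductase encoded by Por, is followed by coupling to glutathione, glucuronic acid or sulfate and by export through ABC transporters. CLK and BMAL1 bind DNA as a heterodimer at e-boxes, with CACGTG as the best known form, and the clock-controlled PAR bZIP factors DBP, TEF and HLF are known activators of several of these genes in liver and kidney. The family names are broader than drug handling: several members transport or modify lipids, retinoids or steroids.

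The DNA under the peaks on which the results turn is shown first, read from the NCBIM37 (mm9) assembly on the plus strand. Capitals mark the e-box CACGTG and, where there is one 6 or 7 bp before it, a second hexamer with at most 1 mismatch to CACGTG. In the upstream Adh5 peak they mark 2 e-boxes.
Por, CLK:BMAL1, chr5:136150819-136150884: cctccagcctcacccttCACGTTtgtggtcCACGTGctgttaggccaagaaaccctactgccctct
Adh5 upstream, CLK:BMAL1, chr3:138105707-138105786: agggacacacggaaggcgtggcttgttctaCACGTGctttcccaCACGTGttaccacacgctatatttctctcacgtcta
Adh5 inside the gene, CLK:BMAL1, chr3:138117930-138117995: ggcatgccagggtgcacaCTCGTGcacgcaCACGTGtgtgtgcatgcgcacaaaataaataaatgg
Cyp2u1, CLK:BMAL1, chr3:131015557-131015622: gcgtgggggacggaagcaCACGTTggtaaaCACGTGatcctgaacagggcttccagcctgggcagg
Abcf1, BMAL1 only, chr17:36106761-36106826: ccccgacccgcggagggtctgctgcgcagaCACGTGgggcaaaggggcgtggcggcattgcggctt
Alas1, BMAL1 only, chr9:106138002-106138067: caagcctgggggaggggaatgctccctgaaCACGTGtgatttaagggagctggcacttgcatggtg
Alas1, CLK only, chr9:106136591-106136656: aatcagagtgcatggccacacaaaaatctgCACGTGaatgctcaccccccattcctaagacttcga
Fmo5, CLK only, chr3:97447022-97447087: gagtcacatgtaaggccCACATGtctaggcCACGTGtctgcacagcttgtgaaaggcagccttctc
Abca5, CLK only, chr11:110227156-110227221: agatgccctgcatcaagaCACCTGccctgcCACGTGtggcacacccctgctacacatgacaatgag

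The other CLK:BMAL1 peaks, at Alas1 and Abcc2, held no CACGTG within 100 bp of the CLK summit (the position of highest signal in the peak). Their nearest hexamers with 1 mismatch are shown in capitals for comparison, with less flanking sequence. The Alas1 stretch lies in the CLK peak but outside the BMAL1 peak that overlaps it.
Alas1, CLK:BMAL1, chr9:106145864-106145889: catctgttctCACCTGcctcacctga
Abcc2, CLK:BMAL1, chr19:43856670-43856695: gattcccagtCACATGtctgctcact

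Por, whose product passes electrons from NADPH to the microsomal P450 enzymes, had the strongest of the 22 peaks by score. At chr5:136150717-136151076 the CLK peak held 65 tags, with a fold enrichment over the local Input of 10.3 and a MACS score (10 times the negative log10 of its p, with a cutoff of 50) of 222. Its BMAL1 counterpart at chr5:136150525-136151160 held 57 tags, with a fold enrichment of 13.9 and a score of 174. Both were high in their own lists, at rank 21 of 759 and rank 85 of 1578 by score, and their summits lay 17 bp apart. The false discovery rate that MACS gave was 4.76% for CLK and 0% for BMAL1. A single e-box lay 14 bp from the CLK summit, 7 bp after the hexamer CACGTT.

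In the deposited table this Por peak lay 14187 bp upstream of the start site, between genes. GENCODE M1, an annotation of the same build, has a further Por start 413 bp before the CLK summit, which placed the summit in a Por intron. The second Por peak was BMAL1 only, at chr5:136164283-136165114 and 385 bp upstream of the start site in the table. It held 48 tags, with a fold enrichment of 8.29, a score of 90.1 and no e-box within 100 bp of its summit. The nearest CLK peak was the one at the upstream start, 13207 bp away, so that 1 of the Por start sites carried peaks of both lists and the other a BMAL1 peak alone.

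Alas1, which encodes the rate-limiting enzyme of haem synthesis in liver, was the gene with most peaks, with 3 under its own symbol and 1 in each class. In all 3 the fold enrichment was low although the peaks were rich in tags. The CLK only peak at chr9:106136312-106137489 was 1178 bp long and held 93 tags, the most of any of the 22, but its fold enrichment was 5.10 (score 118, rank 64 in the CLK list). It lay inside Alas1, but the nearest protein-coding start in GENCODE M1 was that of Tlr9, 11760 bp away. At chr9:106145279-106146007, 4544 bp inside the gene, the CLK part of the CLK:BMAL1 peak held 52 tags with a fold enrichment of 4.39, the lowest of the 22. The BMAL1 part, at chr9:106144916-106145577, held 35 tags with a fold enrichment of 5.22 (scores 87.6 for CLK and 73.6 for BMAL1).

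The overlap at this Alas1 site was 299 bp, and the summits lay 647 bp apart, in contrast to 17 to 85 bp in the other 5 CLK:BMAL1 peaks. It was counted as CLK:BMAL1 because the peaks shared those 299 bp. The converse was seen toward the 3′ end of the gene. There the BMAL1 only peak at chr9:106137779-106138215 (34 tags, fold enrichment 5.69, score 58.7) and the CLK only peak stood in separate classes with a gap of 290 bp between them. Each of these held an e-box near its own summit, at 22 bp and 63 bp. For the other 14 of the 16 "only" peaks, no peak of the other list lay within 1000 bp. That count was not made over all peaks, so nothing is read from it about the group. Another CLK only peak stood in the table under the symbol Poc1a but with the gene identifier of Alas1. It lay at chr9:106148868-106149520, 1148 bp after the Alas1 start of GENCODE M1, with 47 tags, a fold enrichment of 4.53, a score of 63.2 and no e-box. With it, Alas1 had CLK peaks near its start, 4544 bp inside and near its 3′ end, and BMAL1 peaks at the last 2 of these places.

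**Figure D1:**
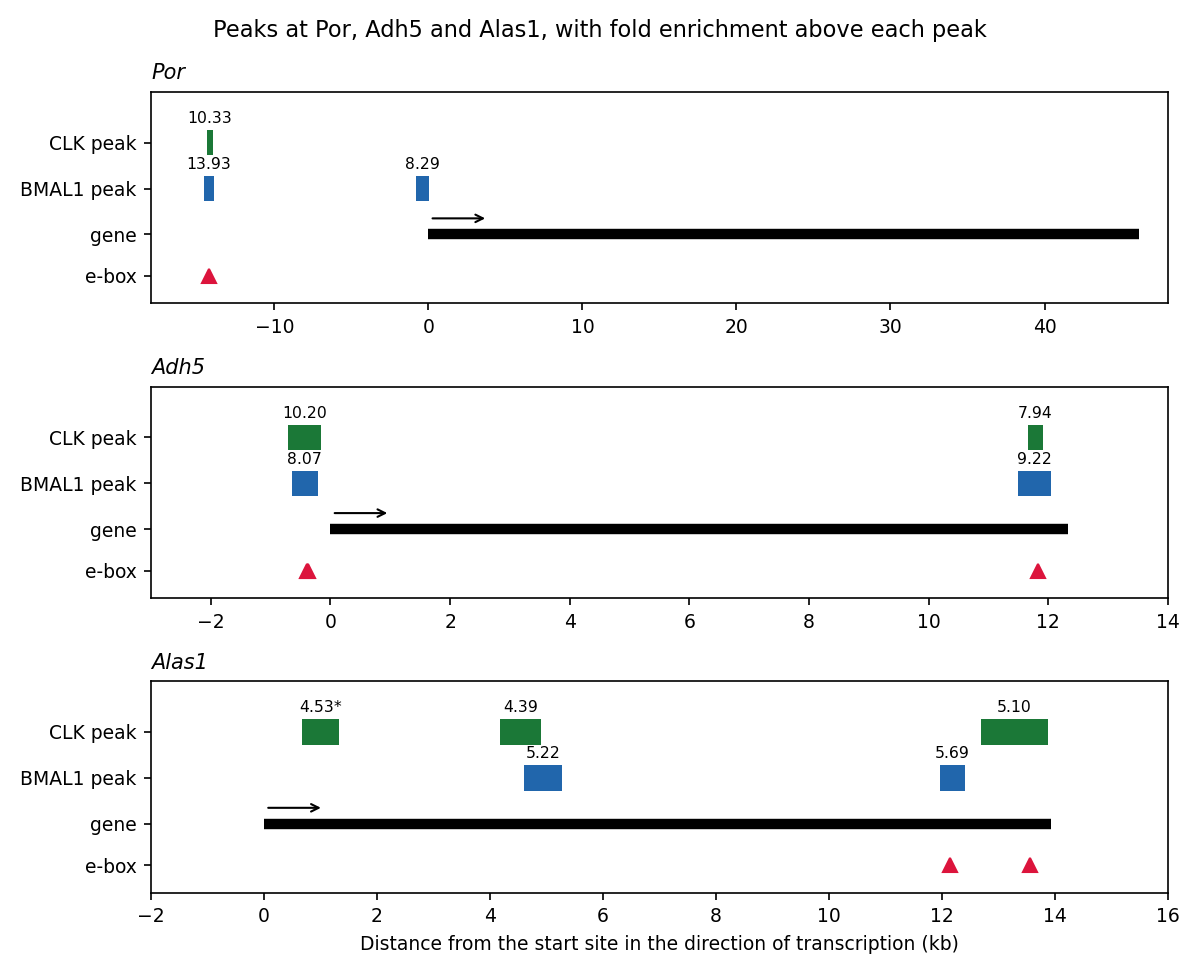
Peaks along Por, Adh5 and Alas1, as distance in kb from the start site of the deposited table in the direction of transcription. Green bars are CLK peaks and blue bars BMAL1 peaks, the number above each is its fold enrichment over Input, black bars are the genes, red triangles are e-boxes within 100 bp of a summit, and the asterisk marks the Alas1 peak listed as Poc1a. At both Adh5 sites and the upstream Por site the peaks of both lists lay on top of each other, the Por peak at the start site was of the BMAL1 list alone, and at Alas1 the peaks of both lists overlapped by 299 bp at 1 place and were apart elsewhere.

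Among the oxidising enzymes, the alcohol dehydrogenase Adh5 was the only gene with more than 1 CLK:BMAL1 peak among the 17. Adh5 oxidises formaldehyde bound to glutathione and reduces S-nitrosoglutathione, and it is expressed in many tissues. The upstream peak at chr3:138105423-138105969, 431 bp from the start site, held 49 CLK tags with a fold enrichment of 10.2 and a score of 172 (rank 31). The BMAL1 peak at the same place held 25 tags with a fold enrichment of 8.07 and a score of 79.9 (rank 351 of 1578). It was the single peak of the 22 with 2 e-boxes within 100 bp of the summit, 8 bp apart. MACS gave the CLK peak an FDR of 9.68% and the BMAL1 peak an FDR of 0.57%.

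The second Adh5 peak lay 11789 bp inside the gene, in an intron near its 3′ end. The CLK peak at chr3:138117796-138118036 held 19 tags with a fold enrichment of 7.94 and a score of 76.2, and the BMAL1 peak at chr3:138117623-138118167 held 25 tags with a fold enrichment of 9.22 and a score of 72.3. At both Adh5 sites the summits lay within 25 bp of each other, and the e-box lay 11 bp and 26 bp from the CLK summit. CLK had the higher fold enrichment upstream and BMAL1 inside the gene, and with 1 library each that order has no replicate. No other of the 7 Adh genes in GENCODE M1 had a peak.

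Of the 98 protein-coding Cyp genes in GENCODE M1, 2 had a peak (2.04%, exact 95% interval 0.248 to 7.18%). The 6.70% of all protein-coding genes with a peak lies within that interval. Cyp2d13, which also had a peak, was not among those 98. Cyp2u1, a hydroxylase of long-chain fatty acids, had the CLK:BMAL1 peak of the family, 9436 bp upstream of its start site in an intron of the non-coding gene 4930534D22Rik. At chr3:131015336-131015826 the CLK peak held 32 tags (fold enrichment 7.15, score 54.0) and the BMAL1 peak 31 tags (fold enrichment 9.65, score 79.1). The tags were nearly equal, while the rank was 536 of 759 in the CLK list and 356 of 1578 in the BMAL1 list. The e-box lay 6 bp from the CLK summit, and 6 bp before it stood CACGTT, the hexamer also found at Por. Cyp2d13 had a CLK only peak 972 bp upstream (27 tags, fold enrichment 6.83, score 84.0) with no e-box. Cyp17a1, the 17-hydroxylase of steroid synthesis, had a BMAL1 only peak 4674 bp inside the gene, in an intron (36 tags, fold enrichment 6.61, score 70.2), with an e-box 32 bp from the summit.

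Fmo5, a flavin monooxygenase abundant in liver, had a CLK only peak 14330 bp inside the gene, in an intron. It held 22 tags with a fold enrichment of 7.94 and a score of 53.6, close to the cutoff. Its e-box lay 9 bp from the summit with CACATG 7 bp before it, and the nearest BMAL1 peak was 310940 bp away.

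Of 81 genes of the coupling enzymes (Gst, Ugt, Sult and Ces), 2 had a peak (2.47%, 0.300 to 8.64%), an interval that holds the 6.70% of all protein-coding genes. Among 23 Gst genes, Gstcd, which is named for a domain shared with the glutathione transferases, had a CLK only peak 61 bp upstream of its start site (23 tags, fold enrichment 7.14, score 56.7). The summit lay 4 bp from the start of Ints12, a subunit of the Integrator complex that is transcribed the other way, and in GENCODE M1 the summit fell in an untranslated region of both genes. Among 21 Ugt genes, Ugt8a, which makes galactosylceramide, a lipid of myelin, had a BMAL1 only peak 61962 bp downstream of its start site, outside the gene. With 17 tags, a fold enrichment of 5.53 and a score of 51.3, it was the weakest of the 22 by score. Neither peak held an e-box. The 17 Sult and 20 Ces genes had no peak under their symbols.

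Of 50 ABC transporter genes, 8 had a peak (16%, 7.17 to 29.1%, beside 6.70% of all protein-coding genes), with 9 peaks in all. Both shares count assigned peaks at any distance. Abca13, Abcc12, Abcd3 and Abca5 were counted through peaks over 10000 bp from the start site and outside the gene. Abcc2, which exports conjugates of drugs and bilirubin into bile, was the 1 with a CLK:BMAL1 peak. At its start site, chr19:43856497-43856970, the CLK peak held 28 tags (fold enrichment 7.94, score 77.7) and the BMAL1 peak 23 tags (fold enrichment 6.76, score 70.0). The CLK summit fell 44 bp after the GENCODE M1 start, in an untranslated region, and the summits were 85 bp apart. No e-box lay within 100 bp of the CLK summit.

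The strongest ABC peak was BMAL1 only and lay 82 bp upstream of Abcf1, which acts in translation and has no transport function. At chr17:36106494-36107059 it held 38 tags with a fold enrichment of 11.8 and a score of 123 (rank 157 of 1578), with an e-box 14 bp from the summit. The sequence within 100 bp of the summit had a GC content of 70.6%, the highest of the 22, and the nearest CLK peak was 260987 bp away. Abcd3, a peroxisomal transporter of fatty acids and bile acid precursors, had a BMAL1 only peak 41160 bp upstream (32 tags, fold enrichment 9.59, score 94.8) with an e-box. Abcb10, a mitochondrial transporter needed for haem synthesis, had a BMAL1 only peak in an intron (27 tags, fold enrichment 4.84, score 59.0) without one. Abca5, which acts in lipid export, had a CLK only peak 28138 bp upstream (18 tags, fold enrichment 6.59, score 53.3) with an e-box 26 bp from the summit. The other 4 ABC peaks lay far from a start site: a BMAL1 only peak 52180 bp inside the retinoid transporter gene Abca4, a BMAL1 only peak 561578 bp past the start of Abca13, and a BMAL1 only and a CLK only peak 232375 bp and 301131 bp past the start of Abcc12. Their scores were 51.9 to 70.4 and 1 of them, the BMAL1 only peak at Abcc12, held an e-box. For the CLK only peak at Abcc12 the nearest protein-coding start in GENCODE M1 was that of Phkb, 247995 bp away.

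**Figure D2:**
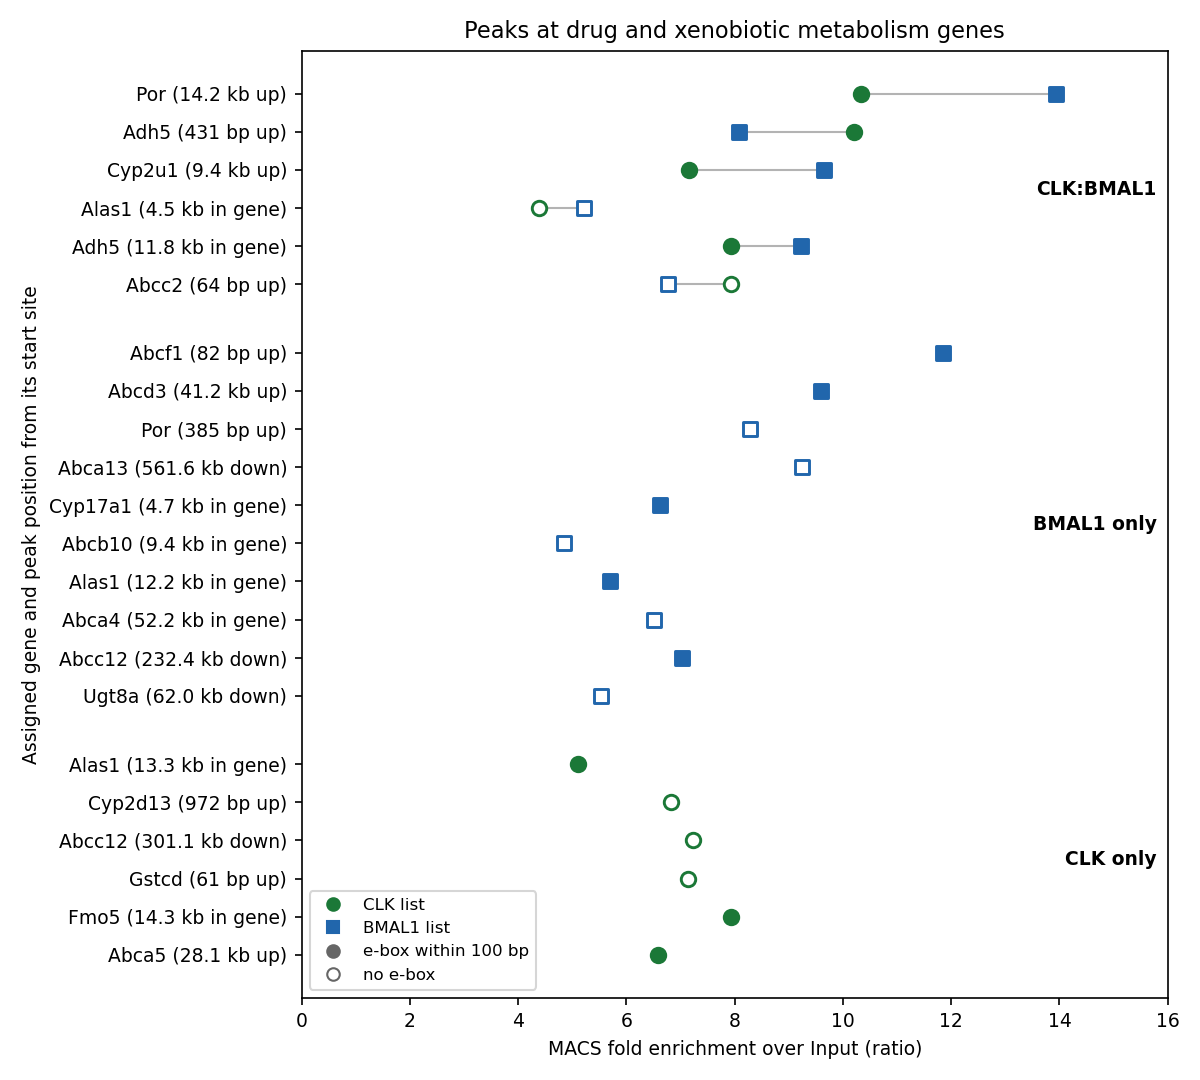
Fold enrichment over Input of each of the 22 peaks by class, with its position from the start site of the assigned gene. Green circles are values of the CLK list and blue squares values of the BMAL1 list, filled where an e-box lay within 100 bp of the summit, and a grey line joins both values of a CLK:BMAL1 peak. The highest values were 13.9 (BMAL1 at Por) and 11.8 (Abcf1), and the lowest was 4.39 (CLK at Alas1).

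As a group, the 22 peaks were spread over all 3 classes. CLK:BMAL1 peaks made up 6 of 22 (27.3%, exact 95% Clopper-Pearson interval 10.7 to 50.2%), beside 9.92% of all peaks in the table. The interval lay just above that share, but this rested on the Alas1 peak with distant summits. When summits had to lie within 100 bp of each other, 5 of 22 remained (22.7%, 7.82 to 45.4%) beside 8.93% of all peaks. With 1 peak per gene it was 4 of 17 (23.5%, 6.81 to 49.9%) beside 9.80%. Both of these intervals hold the share of all peaks. BMAL1 only peaks made up 10 of 22 (45.5%, 24.4 to 67.8%) beside 64.3% of all peaks, and CLK only peaks 6 of 22 (27.3%) beside 25.8%. For both "only" classes the share in all peaks lay within the interval. At the level of genes, 5 had a CLK:BMAL1 peak, 7 had BMAL1 only peaks and no others, 4 had CLK only peaks and no others, and Abcc12 had 1 of each "only" class. These gene counts were not made over all genes with a peak, so they only describe the 17.

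An e-box within 100 bp of the summit was present in 12 of 22 peaks (54.5%, 32.2 to 75.6%), compared with 22.7% of all peaks. Among peaks inside the gene or within 10000 bp of its start site it was 8 of 15 (53.3%, 26.6 to 78.7%) beside 29.9%, a share within the interval. In 11 of the 12 it lay within 50 bp. Over all peaks this nearer window held an e-box in 17.9%, beside the 22.7% within 100 bp. Most e-boxes of all peaks thus lay as close, and the closeness does not set the 22 apart. The same search in the sequence 400 to 500 bp to either side found none in the 22 peaks (0%, up to 15.4%), and 2.87% over all peaks. CLK:BMAL1 peaks hold e-boxes more often than the other classes, so the share was also taken within each class. It was 4 of 6 CLK:BMAL1 peaks (66.7%, 22.3 to 95.7%) beside 59.2% of all CLK:BMAL1 peaks, 5 of 10 BMAL1 only peaks (50%, 18.7 to 81.3%) beside 22.0%, and 3 of 6 CLK only peaks (50%, 11.8 to 88.2%) beside 10.4%. Within the CLK only class alone did the interval lie above the share in all peaks. With at most 1 mismatch allowed, a hexamer was found in all 22 peaks, beside 71.0% of all peaks. No test was made, since the genes were chosen by name with earlier results of these data known.

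Among the 12 peaks with an e-box, 5 (41.7%, 15.2 to 72.3%) had a hexamer with at most 1 mismatch to CACGTG that was set 6 or 7 bp from it. They were the peaks at Por, Cyp2u1, Adh5 (inside the gene), Fmo5 and Abca5, and the same arrangement was found in 11.2% of all 483 peaks with an e-box. A tandem of 2 such elements at this spacing is known from clock gene promoters. The spacing was looked for after the sequences had been read. The partner was CACGTT at Por and Cyp2u1, CTCGTG at Adh5, CACATG at Fmo5 and CACCTG at Abca5, as the capitals above show. Both CLK only peaks of the 5, at Fmo5 and Abca5, had scores of 53.6 and 53.3.

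**Figure D3:**
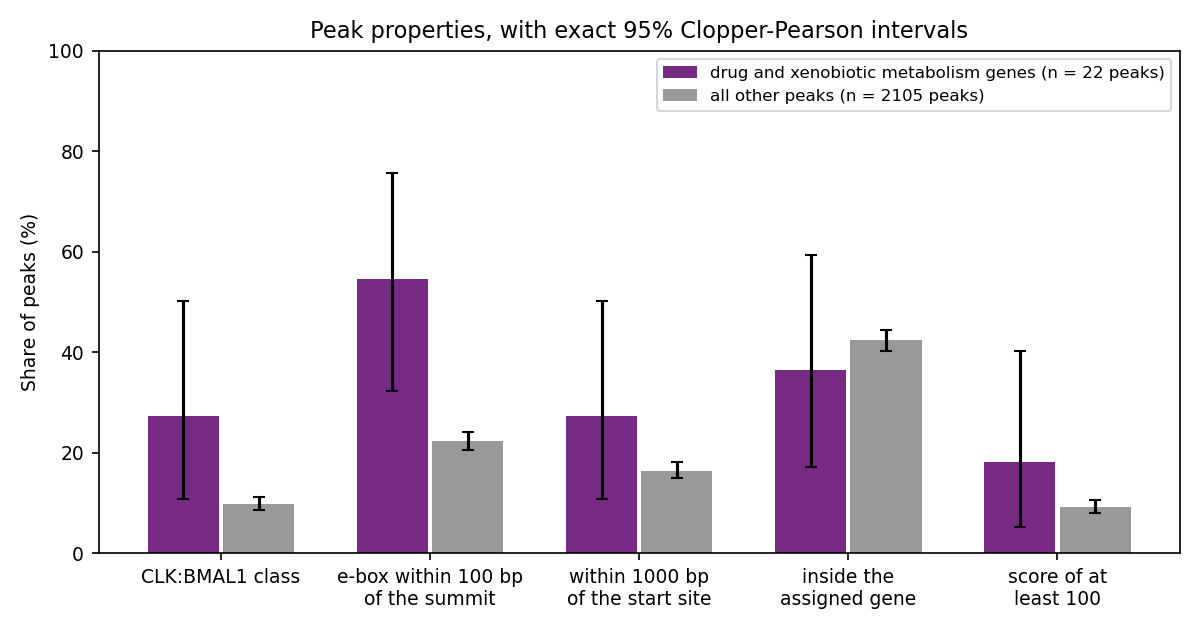
Share of peaks with each of 5 properties, in percent, for the 22 peaks at drug and xenobiotic metabolism genes (purple) and the 2105 other peaks of the table (grey). Error bars are exact 95% Clopper-Pearson intervals. For the CLK:BMAL1 class and the e-box the purple bars stand at 27.3% and 54.5% over grey bars of 9.74% and 22.4%.

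The peaks were near the usual strength. The median fold enrichment was 7.14 (95% interval of the median by order statistics 6.51 to 8.29, range 4.39 to 11.8) in the own list of each peak, beside 6.63 for all peaks, where the own list is the CLK list for CLK:BMAL1 and CLK only peaks and the BMAL1 list for BMAL1 only peaks. By class, the median was 7.94 in CLK:BMAL1 peaks (all such peaks 7.41), 6.82 in BMAL1 only peaks (6.76) and 6.98 in CLK only peaks (6.19). The median score was 70.3 (54.0 to 90.1), above the 58.2 of all peaks but with that value inside its interval. A score of at least 100 was reached by 4 of 22 (18.2%, 5.19 to 40.3%), at Por, Adh5, Abcf1 and Alas1. The 9.26% of all peaks lies within that interval. All 4 held an e-box (100%, 39.8 to 100%), beside 54.8% of all peaks with such a score, a share within the interval. The other 18 peaks had scores of 51.3 to 94.8. An FDR of at most 5% in the own list was reached by 9 of 22 (40.9%, 20.7 to 63.6%), and the rest had a higher one. Among the 2105 other peaks of the table the share was 33.9%, which lies within that interval.

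**Figure D4:**
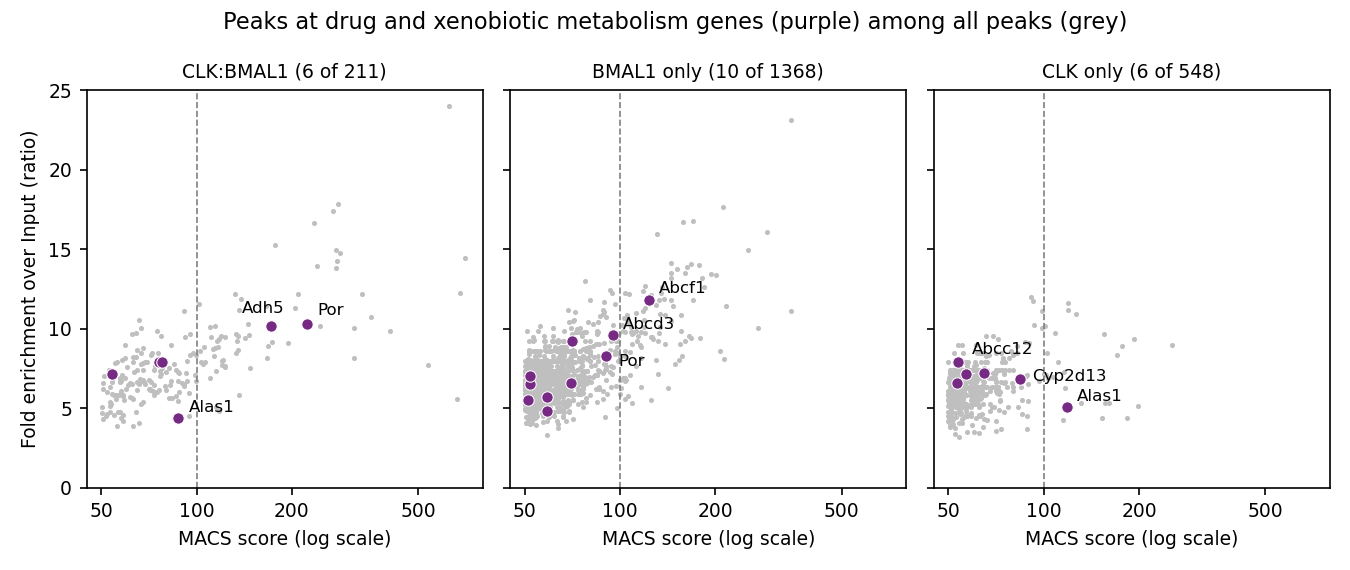
MACS score (log scale) against fold enrichment over Input for all 2127 peaks in grey and the 22 peaks at drug and xenobiotic metabolism genes in purple, 1 panel for each class, with values of the own list and a dashed line at a score of 100. The 3 purple peaks of highest score in each panel are named. Por and Adh5 stand at scores of 222 and 172, while Alas1 lies low in fold enrichment for its score in both panels where it is named.

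In position, 6 of 22 peaks (27.3%, 10.7 to 50.2%) lay within 1000 bp of the start site of their gene, beside 16.5% of all peaks. Inside the gene lay 8 (36.4%, 17.2 to 59.3%), beside 42.3%. Both shares of all peaks lie within the intervals. The 6 near a start site were those of Adh5, Abcc2, Abcf1, Por (BMAL1 only), Cyp2d13 and Gstcd. By the annotation of GENCODE M1, 10 summits fell in introns, 9 between genes, 2 in untranslated regions and 1 in a non-coding exon. The nearest protein-coding start was that of the assigned gene for 18 of the 22, and 7 peaks lay over 10000 bp from the start site and outside the gene. These counts were not made over all peaks, so they describe the 22 and nothing is read from them about the group. Chromosome 3 carried 8 of the 22 peaks (36.4%, 17.2 to 59.3%), beside 6.02% of all peaks. They were at Adh5 (2 peaks), Cyp2u1, Abcd3, Abca4, Ugt8a, Gstcd and Fmo5. Counted by genes rather than peaks, that chromosome holds 7.47% of the protein-coding genes of these families, beside 4.70% of all protein-coding genes. The count of peaks on chromosome 3 was noticed in the data, so nothing is read from it.

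Most genes of these families had no peak. In GENCODE M1, 16 of 281 protein-coding genes (5.69%, 3.29 to 9.08%) were assigned a peak, beside 6.70% of all protein-coding genes, a share within the interval. No peak was assigned to the bile acid enzyme Cyp7a1, to the drug-metabolising Cyp1a2, Cyp2b10, Cyp2c29, Cyp2e1 or Cyp3a11, to Gstp1, Sult1a1, Ces1g or Ugt1a1, or to the exporters Abcb1a, Abcb11 and Abcg2. These genes were picked as familiar examples after the peaks had been seen. Among them the nearest CLK summit was 38.3 kb from Cyp2e1 and the nearest BMAL1 summit 39.4 kb from Abcb11, the bile salt exporter. For Cyp3a11 the distances were 381 kb and 1432 kb. Only reads with a single position in the genome were kept, and several of these families lie in clusters of similar genes. How many sites this removed was not tested.

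A few further peaks lay at family genes under another symbol. At Aldh4a1, a dehydrogenase of proline breakdown, a CLK:BMAL1 peak without a symbol in the table lay in an intron 9461 bp after the start, with an e-box. The CLK peak at chr4:139187959-139188531 held 43 tags (fold enrichment 6.52, score 68.6) and the BMAL1 peak 32 tags (fold enrichment 7.53, score 81.2). BMAL1 only peaks lay 2607 bp upstream of Gstt2 (37 tags, fold enrichment 7.79) and 4933 bp upstream of Abcb1b (17 tags, fold enrichment 7.37), each assigned in the table to an unnamed transcript and each without an e-box. With the peaks at Aldh4a1 and of Alas1 listed as Poc1a included, 7 of 24 peaks (29.2%) were CLK:BMAL1, beside 9.92% of all peaks. An e-box was held by 13 (54.2%), beside 22.7%. The peaks near Gstt2 and Abcb1b were not added, and both shares would be lower with them.

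Regulators and other genes of the same pathways were taken from a list of 54 genes, chosen with earlier results of these data known. Of these, 13 had a peak (24.1%, beside 6.70% of all protein-coding genes). A CLK:BMAL1 peak was assigned to 6 (11.1%, beside 0.724%), a BMAL1 only peak to 8 (14.8%, beside 4.60%), with Hlf in both counts, and a CLK only peak to none (0%, up to 6.60%, beside 1.75%). The list holds the PAR bZIP genes, which are known clock targets, and nothing is read from its shares. All 3 PAR bZIP genes (Dbp, Tef and Hlf) had a CLK:BMAL1 peak. Among 15 xenobiotic receptors and partner factors, Hnf4a had a CLK:BMAL1 peak (fold enrichment 6.58 for CLK and 13.0 for BMAL1) inside the gene. BMAL1 only peaks were found at Nfe2l2, Rxra, Ppara, Nr1h4 and Esr1, whereas the drug sensors Nr1i2 (PXR), Nr1i3 (CAR) and Ahr had none. Nfe2l2, the oxidative stress factor NRF2, had the strongest of these, 847 bp inside the gene with a fold enrichment of 9.47 and a score of 125. Gclc, the catalytic subunit of the rate-limiting enzyme of glutathione synthesis, had a BMAL1 only peak 3981 bp upstream (fold enrichment 8.07) with an e-box.

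In haem synthesis, CLK:BMAL1 peaks were assigned to Alas1, the first enzyme, and to Fech, the last, beside 0.724% of all protein-coding genes. At Alas1 the summits of both factors lay 647 bp apart. Both genes were chosen by name, and nothing is read from the pair. Fech, which puts iron into protoporphyrin, had its CLK:BMAL1 peak 166 bp upstream of its start site. The fold enrichment and score were 8.67 and 64.7 for CLK and 10.1 and 83.8 for BMAL1. The Fech peak held no e-box. The other 8 of the 9 listed haem genes had no peak. Of 8 listed carriers, Slco1a4 had a CLK:BMAL1 peak 81501 bp downstream of its start site, outside the gene and without an e-box. Its score was 51.0 for CLK, close to the cutoff of 50, and 59.5 for BMAL1.

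Motifs of other factors were searched within 100 bp of the summit, on both strands. The FOXA core TGTTTAC was found at 2 of 22 peaks (9.09%), those of Cyp2u1 and Fmo5, beside 3.24% of all peaks. The D-box, to which the PAR bZIP factors bind, was searched as TTATGTAA and TTACGTAA and was in none of the 22, beside 1.93% of all peaks. GGGCGG, the core of the SP1 site, was at 4 (18.2%) beside 14.6%, and the nuclear receptor element AGGTCA at 5 (22.7%) beside 15.9%. Each share in all peaks lay within the interval of the 22. A match is a run of letters and no evidence that the factor was bound.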

How the data were processed

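Sequencing reads (CASAVA 1.6, per the submitters' processing notes) were mapped by the authors to mm9 with bowtie (version not given in the sources used here), and reads with 1 position were kept. MACS compared each ChIP with Input, per the file headers with a p cutoff of 1e-05, a band width of 80, a tag size of 36, a model fold of 5 and an effective genome size of 1890000000. The deposited lists give for each peak the count of tags, a score, a fold enrichment (ratio of ChIP to local Input) and an FDR in percent. A deposited table gives the class, the assigned gene and the distance to its start site. Peaks within a gene went to it and the rest to the closest start, and the authors inspected CLK:BMAL1 assignments by eye.

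Members and lists were chosen with earlier results of these data known. Table and lists were joined by position (Python 3.11.15, pandas 2.3.3, SciPy 1.17.1). Sequences were read from NCBIM37 with pysam 0.24.0 and genes from GENCODE M1. The motif search was tested on simulated sequences. Named in full were genes with a CLK:BMAL1 peak, with a score of at least 100 or with 2 or more peaks, Por, Alas1 and the best peak of each family. Others were named after their values were seen. Nothing was tested between conditions. One gene counted in the list of 54 is not reported here by name. Alternatives covered thresholds, gene assignment, overlap, motif and window.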

Additional observations from a re-analysis of the deposited data

How the results depend on the processing

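Across 5 results (the shares of CLK:BMAL1 peaks, of e-boxes, near the start site and with a score of at least 100, and the median fold enrichment), 32 of 36 alternative values stayed inside the 95% interval of the value reported. With a score of at least 100, 4 peaks remained, of which 100% held an e-box (54.8% of all such peaks), and their median fold enrichment was 10.3 (9.66 for all). With at most 1 mismatch allowed, the e-box share was 100% (71.0% for all). Tags in place of fold enrichment gave a median of 27.5 (22.0 for all), which is another unit. The CLK:BMAL1 share ran from 22.7%, when summits had to lie within 100 bp or 50% of the shorter peak had to be covered, to 50% (2 of 4), with a score of at least 100 (34.5% of all such peaks). Its interval held the share of all peaks under 7 of 9 alternatives, and the interval of the e-box share did so under 3 of 11. The addition of the peaks under another symbol was chosen after seeing the data. No paired analysis was possible because each antibody has 1 library, and for the same reason no replicate could be left out. Tags per peak (17 to 93) limit the precision of single values, and a factor absent from a list may lie just under the cutoff.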
